A study of Homo sapiens with 22 samples.

Results

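A set of 10 genes that drive or restrain the passage of a cell from G1 into S phase was followed across the culture of blood progenitors with and without ectopic MYC: the D-type cyclins CCND1, CCND2 and CCND3, the E-type cyclins CCNE1 and CCNE2, the cyclin-dependent kinases CDK2, CDK4 and CDK6, the phosphatase CDC25A and the retinoblastoma protein gene RB1. They were picked by gene name, so that 10 of the 60240 genes in the count table were members, and all 10 passed the filter on low counts that left 20115 genes for testing. The cells, blood (haematopoietic) progenitors, had been differentiated from H1, an established line of human embryonic stem cells. In the DOX arm doxycycline switched on ectopic MYC, and libraries were taken every other day of culture, on days 12, 14, 16, 18 and 20. In the UT arm, without doxycycline and without ectopic MYC, libraries came from the same 5 days and from day 10. PolyA-selected RNA was sequenced from 2 libraries in each of the 11 groups, 22 in all, which the labels place in 1 batch. The day on which doxycycline was added, the site and promoter of the MYC construct, whether UT cells carried it too, and whether replicates came from separate cultures are not stated by the labels; p-values therefore cover only library-to-library spread, part or all of which may be technical.

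In mammalian cells the D-type cyclins bind CDK4 and CDK6, and the E-type cyclins bind CDK2. These kinases add phosphates to the retinoblastoma protein, which then releases E2F transcription factors, and E2F targets, CCNE1, CCNE2 and CDC25A among them, carry the cell into DNA synthesis. CDC25A removes inhibitory phosphates from CDK2. MYC, a transcription factor that binds the E-box word CACGTG together with MAX, has CCND2 and CDK4 among its described targets, and CDK6 and CCND3 have well described roles in blood progenitors.

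Sequence before a RefSeq start is shown for the members with a word that MYC or E2F factors are known to bind, because the arms differ by MYC. RefSeq starts on GRCh38.p14 were found for 6 members, which gave 9 windows of 250 bases before a start. They were searched on both strands for CACGTG and for the E2F words TTTGGCGC, TTTCCCGC, TTTGCCGC and TTTCGCGC, which do not overlap CACGTG. The window of CDK4 (chr12:57752311-57752560, minus strand) held CACGTG 3 times, with first bases 216, 196 and 101 bases before the RefSeq start. It lies inside the GENCODE 29 span of CDK4 (chr12:57747727-57756013), which begins 3703 bases before that start, and 211 of its 250 bases fall in exons of CDK4, so 2 stretches of 30 bases that hold the words are shown. At least 1 CACGTG was present in 6.34% and at least 3 in 0.0797% of all 35116 windows of this length. The window of CDC25A (chr3:48188418-48188667, minus strand, upstream of the gene's GENCODE 29 span) held TTTGGCGC once, 44 bases before the start, and 2.79% of all windows held one of the E2F words. These letters were not found in the windows of CCND3, CCNE1, CDK6 and RB1, which says only that they are not there. The RB1 window precedes a start 172724 bases inside the span of that gene, and the sequence before its first exon was not searched. The sequences are given 5′ to 3′ on the strand of the gene, with the matched words in capitals.
CDK4, chr12:57752499-57752528: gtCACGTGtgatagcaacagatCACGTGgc
CDK4, chr12:57752394-57752423: atgggtggcggtCACGTGcccagaacgtcc
CDC25A, chr3:48188418-48188667: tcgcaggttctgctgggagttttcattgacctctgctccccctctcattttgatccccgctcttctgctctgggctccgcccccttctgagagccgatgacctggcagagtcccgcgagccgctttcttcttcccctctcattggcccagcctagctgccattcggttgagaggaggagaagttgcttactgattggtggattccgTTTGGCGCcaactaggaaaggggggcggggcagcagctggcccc

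Library totals ran between 24730517 and 53508590 counts. MYC itself, the gene switched on by doxycycline, stood at 242 and 232 CPM (counts scaled by library size, with TMM normalisation) on day 12, 164 and 184 on day 14, 133 and 84.4 on day 16, 66.2 and 56.1 on day 18 and 49.6 and 28.9 on day 20 in DOX libraries. UT libraries held 157 and 142 CPM on day 10, 126 and 121 on day 12, 88.7 and 58.0 on day 14, 59.8 and 46.8 on day 16, 45.0 and 33.2 on day 18 and 34.6 and 28.7 on day 20. MYC was thus higher in both DOX libraries than in both UT libraries on days 12 to 18, the arms overlapped on day 20, and edgeR called the difference on days 12, 14 and 16 and not on day 18 (0.65, adjusted p = 0.051) or day 20 (0.31, adjusted p = 0.39). The counts do not separate the ectopic from the endogenous transcript. The share of counts from mitochondrially encoded genes also moved with arm and day: it averaged 11.3%, 11.1%, 20.2%, 36.7% and 57.0% from day 12 to day 20 in DOX cells and 8.92%, 10.6%, 13.7%, 54.7%, 59.7% and 72.7% from day 10 to day 20 in UT cells. The difference, 15.0 points lower in DOX cells over the 5 shared days, had a two-sided exact permutation p of 0.0036. On days 12 and 14 alone the DOX minus UT difference in this share was -0.921 points (exact permutation p = 0.778). With 36 arrangements, and the UT libraries of day 14 at 17.454% and 9.955%, that test cannot show that the shares were equal. Averaged over those days 5 of the 10 members were called, with 25.1% of all genes called (14.2% higher, 10.8% lower). They were CCND1 (-0.79), CDK6 (0.50), RB1 (0.49), CCNE2 (0.40) and CDC25A (0.30), the last not called over all 5 days. On day 12 alone edgeR called none of the members. The part of the mitochondrial share in these calls was not tested. Library 2 of UT day 16 stood apart, with 549 CPM summed over 7 fibroblast markers against 18.2 CPM in library 1 of that group, COL3A1 at 295 CPM and DCN at 8.10 CPM, and the called day 16 differences are also given without it. Between the 2 libraries of a group, counts disagreed most in UT day 14, with a chi-square per degree of freedom of 100. DOX day 14 came next at 44.6, and UT day 16 stood at 33.5.

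Averaged over the 5 shared days, 7 members were higher and 1 was lower in DOX than in UT cells, and CCND2 and CDC25A were not called. The test was edgeR's quasi-likelihood test with Benjamini-Hochberg adjustment over all genes, called at an adjusted p under 0.05, and it called 52.9% of all genes (29.8% higher and 23.0% lower), so that 8 called of 10 has to be read against a high background. The median log2 fold change of the members was 0.26, against 0.081 for all genes. CCND1 had the largest change, at -1.21 ± 0.11 on the log2 scale (SE; adjusted p = 5.7e-08), which is 2.31-fold lower in DOX cells. CCNE2 followed at 0.75 ± 0.10 (SE; adjusted p = 4.4e-06), then RB1 at 0.54 ± 0.10 (SE; adjusted p = 0.00019). The 5 other called members differed less than 1.3-fold: CDK4 by 0.33, CDK2 by 0.30, CDK6 by 0.29, CCNE1 by 0.23 and CCND3 by 0.17 on the log2 scale, with adjusted p values between 0.00014 and 0.0062. The same 8 members were called in each of the 20 fits that left out 1 library, UT day 16 library 2 included. Single days carried some of these averages: CCND3 lost its call without day 16 (0.0012) or day 18 (0.07), CCNE1 without day 20 (0.10), CDK6 without day 14 (0.16) and CDK2 without day 16 (0.21), while CDC25A gained one without day 14 (-0.19, adjusted p = 0.015). Scaling by library sizes alone moved the median of all genes to 0.599 and turned CDC25A to 0.47, which was then called higher (adjusted p = 2.5e-06). Relative to the median of the same fit each member stayed within 0.04 over 5 scalings. A scaling shifts all genes nearly alike, so the subtraction itself brings this about and cannot show which scaling is right.

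**Figure D1:**
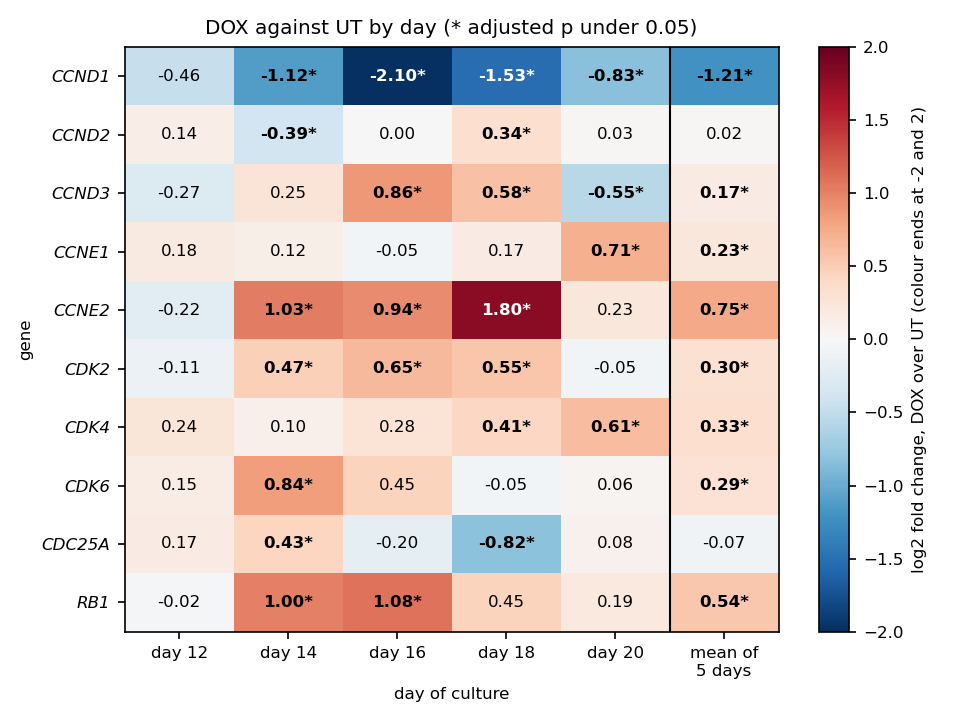
Log2 fold change of DOX over UT for the 10 members (rows) on each of 5 days and averaged over them (columns), from edgeR's quasi-likelihood test, with an asterisk at an adjusted p under 0.05. CCND1 is negative in every column and reaches -2.10 on day 16, while CCND3, CCND2 and CDC25A change sign between days; by library sizes alone CCND1 is 0.08 on day 20, CCND3 0.37 on day 20 and CDC25A 0.09 on day 18.

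By day, none of the 10 members was called on day 12, when 3.11% of all genes were called by edgeR (0.845% higher and 2.26% lower); 1 member had an unadjusted p under 0.05, limma-voom called 0 and DESeq2 called 1, CCND3. That count of all genes, 625, was unsteady: it lay between 56 and 217 with 1 library left out, and with the groups compared alone in the fit it was 4742, with CCND1 (-0.49) and CCND3 (-0.31) called. On day 14, 5 members were higher and 2 lower, with 27.0% of all genes called (15.3% higher, 11.7% lower). On day 16, 4 were higher and 1 lower, with 39.9% of all genes called (21.2% higher, 18.7% lower). On day 18, 5 were higher and 2 lower, with 35.8% called (19.8% higher, 16.0% lower), and on day 20, 2 were higher and 2 lower, with 27.8% called (15.9% higher, 11.9% lower). With the groups compared alone 2 were higher and 2 lower on day 18, and 0 were called on day 20, when edgeR then called 2035 genes. By library sizes alone 9 were higher and 1 lower on day 16, 8 and 1 on day 18, and 9 and 0 on day 20. The members called therefore differed between days, and CCND1 was the one called on each of days 14 to 20. The CPM of the arms did not overlap for 9 members on day 12, when the same held for 61.7% of all genes, and for 9 on day 18 (62.5%). For 8 members there was no overlap on day 14 (68.5% of all genes) and again 8 on day 16 (71.0%), but 4 on day 20 (51.4%). With 2 libraries in each arm, separation of this kind was common among all genes. No member lay higher in DOX cells without overlap on all 5 days, as 6.89% of all tested genes did.

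CCND1 encodes cyclin D1, the first of the D-type partners of CDK4 and CDK6. It stood at 4.76 and 5.96 CPM on day 12, 1.72 and 1.89 on day 14, 1.09 and 1.11 on day 16, 1.72 and 2.66 on day 18 and 3.54 and 3.68 on day 20 in DOX libraries. In UT libraries it was at 12.7 and 16.9 CPM on day 10, 6.96 and 7.75 on day 12, 3.81 and 4.06 on day 14, 3.68 and 5.71 on day 16, 6.53 and 6.23 on day 18 and 6.43 and 6.41 on day 20. In these TMM-scaled CPM both DOX libraries were below both UT libraries on all 5 days, a pattern that 5.36% of all tested genes shared. The lowest DOX values fell on day 16, and the UT arm had its lowest mean on day 14. The log2 fold change was -1.12 ± 0.24 on day 14 (SE; adjusted p = 0.0021), -2.10 ± 0.26 on day 16 (adjusted p = 6.4e-06), -1.53 ± 0.26 on day 18 (adjusted p = 0.00017) and -0.83 ± 0.26 on day 20 (adjusted p = 0.024). On day 16 this was 4.27-fold lower in DOX cells, and without UT day 16 library 2 the value was -1.73 (adjusted p = 0.00029). The day 20 call was lost without any one of its 4 libraries: -0.80 without DOX library 1 (adjusted p = 0.11), -0.85 without DOX library 2 (0.065), -0.82 without UT library 1 (0.07) and -0.83 without UT library 2 (0.075). It was also lost with limma-voom (-0.84, adjusted p = 0.11), with no filter (-0.81, 0.069) and with the groups compared alone (-0.86, 0.18). By library sizes alone the day 20 value was 0.08 (0.83), and with mitochondrially encoded genes also removed it was -0.57 (0.1). CCND1 rested on 48 to 873 counts a library, and 497 of its exon bases lie opposite LTO1, which held 10219 counts against 5056 of CCND1; the strand setting of the counting was not given, so reads of the pair cannot be told apart there.

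CCND2 encodes cyclin D2. Its DOX libraries held 71.7 and 75.6 CPM on day 12, 87.9 and 83.6 on day 14, 139 and 135 on day 16, 172 and 179 on day 18 and 160 and 130 on day 20. Its UT libraries held 56.7 and 62.7 CPM on day 10, 62.4 and 71.4 on day 12, 119 and 106 on day 14, 153 and 121 on day 16, 138 and 139 on day 18 and 144 and 139.5 on day 20. CCND2 was thus at about the same high level in both arms at the end, with DOX below UT on day 14, above it on days 12 and 18, and overlapping it on days 16 and 20. On day 14 the log2 fold change was -0.39 ± 0.13 (SE; adjusted p = 0.032), and on day 18 it was 0.34 ± 0.13 (adjusted p = 0.049). Neither call was stable: on day 14 it was lost without DOX library 1 (-0.41, adjusted p = 0.1), DOX library 2 (-0.34, 0.21) or UT library 1 (-0.29, 0.21). On day 18 it was lost without DOX library 1 (0.41, adjusted p = 0.066), DOX library 2 (0.32, 0.16), UT library 1 (0.34, 0.13) or UT library 2 (0.36, 0.11). The day 14 call also ended with no filter (-0.35, 0.12), and the day 18 call with DESeq2 (0.29, 0.06), its size factors (0.29, 0.093), with the groups compared alone (0.31, 0.14) and with both other filters (0.36, 0.079 with none).

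CCND3 encodes cyclin D3. Its DOX libraries held 296 and 301 CPM on day 12, 238 and 236 on day 14, 173 and 200 on day 16, 138 and 132 on day 18 and 65.3 and 66.5 on day 20. Its UT libraries held 313 and 299 CPM on day 10, 362 and 360.1 on day 12, 207 and 191 on day 14, 109 and 95.7 on day 16, 89.3 and 92.0 on day 18 and 94.7 and 98.3 on day 20. The arms did not overlap on any day, but their order changed: DOX was below UT on days 12 and 20 and above it on days 14, 16 and 18. In UT cells the level dropped between days 12 and 16 and then levelled off, whereas in DOX cells each day lay below the one before. The log2 fold change was 0.86 ± 0.11 on day 16 (SE; adjusted p = 5.1e-06), 0.58 ± 0.11 on day 18 (adjusted p = 0.00039) and -0.55 ± 0.11 on day 20 (adjusted p = 0.001). Without UT day 16 library 2 the day 16 value was 0.79 (adjusted p = 0.00029), and with the groups compared alone the day 20 value was -0.58 and no longer called (0.065). By library sizes alone the day 20 value was 0.37, and with mitochondrially encoded genes also removed it was -0.29 and not called (0.067). Relative to the median of all genes in the same fit the day 20 value lay between -0.63 and -0.58 over 5 scalings. The subtraction itself makes this range narrow.

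Per kb of merged exons, CCND3 was the leading D-type cyclin transcript at the start of the culture and CCND2 at its end, in both arms. The order at the end depends on the length used. CCND3 has 5802 merged exon bases but 2394 in its longest transcript, and CCND2 has 7157 and 6480. By longest transcripts CCND3 would stay ahead of CCND2 on day 20 in both arms. The 3 levels summed to 62.8 ± 1.12 CPM per kb of merged exons on day 12 in DOX cells and 73.1 ± 0.832 in UT cells (SD, n = 2 each). On day 16 the sum was 51.4 ± 2.94 in DOX cells and 37.8 ± 4.54 in UT cells (41.0 in UT library 1 alone), and on day 20 it was 32.3 ± 2.79 in DOX cells and 37.8 ± 0.0446 in UT cells. The sum of DOX cells thus lay below that of UT cells on days 12 and 20 and above it on day 16, with no overlap of libraries on these days. The share of CCND2 in this sum, which no scaling of libraries changes, averaged 16.4%, 22.5%, 37.2%, 50.8% and 62.4% from day 12 to day 20 in DOX cells. In UT cells it averaged 13.0%, 12.8%, 30.9%, 50.6%, 53.3% and 52.5% from day 10 to day 20. From day 16 on the share of UT cells changed little, whereas in DOX cells each later day lay above the one before. Averaged over the 5 days the DOX minus UT difference was -2.16 points (two-sided exact permutation test within days, p = 0.358, adjusted over 3 shares 0.537), with -13.4 points on day 16 and 9.9 points on day 20. Without UT day 16 library 2 the average was -2.51 points.

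**Figure D2:**
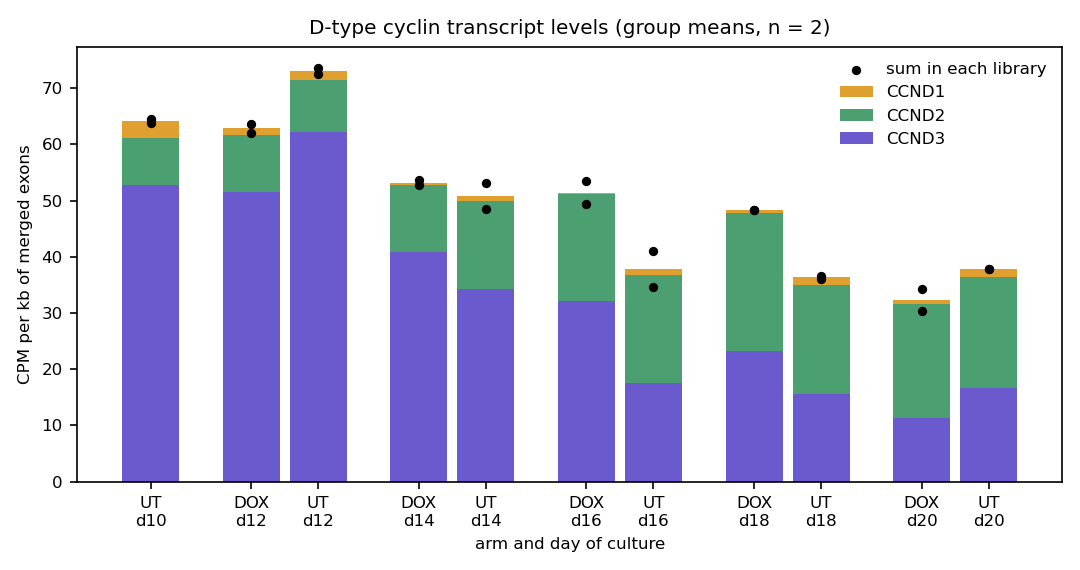
Stacked bars give the mean level per length of CCND3, CCND2 and CCND1 (CPM per kb of merged exons, n = 2) in each arm and day, with black points for the sum in each library. CCND3 makes up most of the bar on days 10 and 12, CCND2 on day 20 in both arms, and CCND1 is a thin strip throughout. The day 20 order of CCND3 and CCND2 depends on the length used.

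CDK4 and CDK6 encode the kinases that D-type cyclins activate. CDK4 stood at 63.6 and 56.2 CPM on day 12, 91.7 and 80.2 on day 14, 106 and 104 on day 16, 93.2 and 80.2 on day 18 and 90.2 and 83.1 on day 20 in DOX libraries. In UT libraries it was at 69.6 and 70.8 CPM on day 10, 51.2 and 50.1 on day 12, 86.9 and 73.8 on day 14, 98.2 and 74.6 on day 16, 63.8 and 66.9 on day 18 and 55.3 and 58.1 on day 20. DOX libraries were above UT libraries on days 12, 16, 18 and 20 and overlapped them on day 14. The difference passed the test on day 18 (0.41 ± 0.13 on the log2 scale, SE; adjusted p = 0.025) and on day 20 (0.61 ± 0.14; adjusted p = 0.0028), the latest days sampled. On day 16 the value was 0.28 ± 0.13 and not called; it was 0.51 (adjusted p = 0.016) without UT library 1 and 0.11 (0.63) without UT library 2. The day 18 call was lost without DOX library 1 (0.34, adjusted p = 0.13), UT library 1 (0.38, 0.1) or UT library 2 (0.46, 0.054). With the groups compared alone neither day 18 (0.38, 0.089) nor day 20 (0.58, 0.066) was called. On day 20 the level was 1.53-fold higher in DOX cells. CDK4 shares 1369 exon bases with TSPAN31 on the opposite strand, which held 13017 counts against 71094 of CDK4.

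CDK6 took another course, with its difference early. DOX libraries held 106 and 97.3 CPM on day 12, 81.1 and 91.8 on day 14, 50.1 and 47.2 on day 16, 40.9 and 24.4 on day 18 and 36.0 and 33.6 on day 20. UT libraries held 126 and 121 CPM on day 10, 88.4 and 94.7 on day 12, 46.6 and 50.1 on day 14, 31.2 and 39.8 on day 16, 30.9 and 36.3 on day 18 and 29.5 and 37.0 on day 20. Both arms ended at about the same low level, and DOX cells came down to it later. On day 14 DOX cells held 1.79-fold more CDK6 (0.84 ± 0.18 on the log2 scale, SE; adjusted p = 0.0019). On day 16 the log2 fold change was 0.45 ± 0.18 and not called, and without UT day 16 library 2 it was 0.65 (adjusted p = 0.038). It was also called with limma-voom (0.46, 0.04), with no filter (0.49, 0.012) and with the groups compared alone (0.44, 0.036). The arms overlapped on days 18 and 20.

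The share of CDK4 in the summed level per length of CDK4 and CDK6 grew over the culture in both arms. It averaged 69.5%, 79.3%, 89.3%, 91.3% and 90.6% from day 12 to day 20 in DOX cells. In UT cells it averaged 68.7%, 68.2%, 86.5%, 90.2%, 88.3% and 86.9% from day 10 to day 20. The largest gap was on day 14, with a DOX minus UT difference of -7.18 points and no overlap of libraries. Averaged over the 5 days the difference was 0.00501 points (two-sided exact permutation test, p = 0.997, adjusted 0.997), and its sign turned under several of the alternatives tried, at -0.447 points without UT day 16 library 2.

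**Figure D3:**
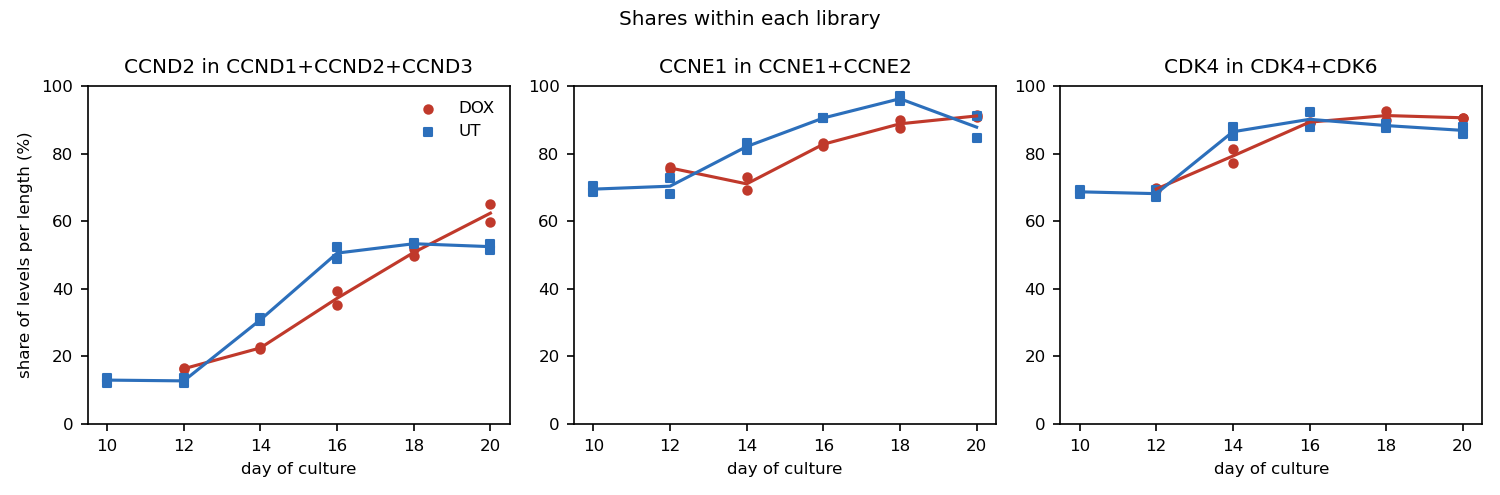
Each panel plots, by day, the share of 1 gene in the summed level per length of its family within each library (percent), with points for libraries and lines through the means of 2, DOX in red and UT in blue. On days 14 and 16 the DOX shares of CCND2 and CCNE1 lie below the UT shares, and all 3 shares are higher on day 20 than on day 12 in both arms.

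CCNE2, which encodes cyclin E2, showed the largest excess in DOX cells among the members. Its DOX libraries held 6.90 and 6.50 CPM on day 12, 9.61 and 10.6 on day 14, 6.15 and 6.02 on day 16, 3.95 and 3.66 on day 18 and 3.41 and 3.89 on day 20. Its UT libraries held 11.3 and 12.1 CPM on day 10, 8.54 and 7.09 on day 12, 5.01 and 4.87 on day 14, 3.19 and 3.15 on day 16, 0.855 and 1.28 on day 18 and 3.86 and 2.40 on day 20. DOX libraries were above UT libraries on days 14, 16 and 18, below them on day 12, and overlapped them on day 20. The log2 fold change was 1.03 ± 0.20 on day 14 (SE; adjusted p = 0.00092), 0.94 ± 0.21 on day 16 (adjusted p = 0.0019) and 1.80 ± 0.26 on day 18 (adjusted p = 3.3e-05), the last a 3.47-fold excess. Without UT day 16 library 2 the day 16 value was 0.94 (adjusted p = 0.018). The UT values of day 18 rest on 11 and 25 counts. CCNE2 has 1629 exon bases opposite INTS8, which held 35947 counts against 6473 of CCNE2, and reads of the pair cannot be told apart there.

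CCNE1, which encodes cyclin E1, was at 12.7 and 11.6 CPM on day 12, 15.1 and 13.7 on day 14, 17.6 and 16.3 on day 16, 16.3 and 19.1 on day 18 and 21.4 and 22.1 on day 20 in DOX libraries. In UT libraries it was at 14.3 and 16.8 CPM on day 10, 10.6 and 10.9 on day 12, 12.4 and 14.0 on day 14, 17.6 and 17.6 on day 16, 15.7 and 15.8 on day 18 and 12.3 and 14.2 on day 20. DOX libraries lay above UT libraries on days 12, 18 and 20 and overlapped them on days 14 and 16, and the gap was widest on day 20. On day 20 DOX cells held 1.64-fold more (0.71 ± 0.15 on the log2 scale, SE; adjusted p = 0.0017), and no other day passed the test. With the groups compared alone the day 20 value was 0.69 and not called (0.085), and a change of the difference over days was not called either (adjusted p = 0.061). Per length, CCNE1 was the larger of the E-type cyclin transcripts in every library, between 68.1% and 96.9% of their sum. Its share was lower in DOX cells on 3 days, each with no overlap of libraries: the DOX minus UT difference was -11 points on day 14, -7.76 on day 16 and -7.42 on day 18. It was higher in DOX cells by 5.41 points on day 12, with no overlap, and by 3.31 points on day 20. Averaged over 5 days the difference was -3.50 points (two-sided exact permutation test, p = 0.0957, adjusted 0.287), and it was -3.49 points without UT day 16 library 2.

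CDK2, the kinase of E-type cyclins, was at 41.3 and 40.1 CPM on day 12, 47.3 and 50.7 on day 14, 42.5 and 38.3 on day 16, 29.2 and 26.4 on day 18 and 21.1 and 27.7 on day 20 in DOX libraries. In UT libraries it was at 48.9 and 49.2 CPM on day 10, 44.4 and 43.7 on day 12, 38.5 and 32.4 on day 14, 30.3 and 21.1 on day 16, 22.6 and 15.8 on day 18 and 26.2 and 24.2 on day 20. DOX libraries were above UT libraries on days 14, 16 and 18, as for CCNE2, below them on day 12, and overlapped them on day 20. The log2 fold change was 0.47 ± 0.17 on day 14 (SE; adjusted p = 0.049), 0.65 ± 0.17 on day 16 (adjusted p = 0.006) and 0.55 ± 0.18 on day 18 (adjusted p = 0.025). With DESeq2 size factors (0.44, adjusted p = 0.067) and by library sizes alone (0.45, 0.056) CDK2 was not called on day 14. Nor was it with at least 1 CPM in 4 libraries (0.39, 0.08) or by library sizes alone with mitochondrially encoded genes removed (0.40, 0.14). On day 14 the call was lost without any one of the 4 libraries, with values of 0.53 (adjusted p = 0.095) without DOX library 1, 0.43 (0.22) without DOX library 2, 0.61 (0.051) without UT library 1 and 0.36 (0.28) without UT library 2. It was lost on day 16 without UT library 2 (0.43, adjusted p = 0.12), the library with fibroblast markers. On day 18 it was lost without DOX library 1 (0.52, adjusted p = 0.098) or UT library 2 (0.31, 0.27), and with the groups compared alone (0.51, 0.1).

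CDC25A, the phosphatase that activates CDK2, was at 34.8 and 34.4 CPM on day 12, 44.1 and 45.5 on day 14, 50.8 and 50.5 on day 16, 41.1 and 35.1 on day 18 and 54.04 and 62.8 on day 20 in DOX libraries. In UT libraries it was at 42.4 and 47.3 CPM on day 10, 32.7 and 28.6 on day 12, 35.0 and 31.6 on day 14, 61.0 and 54.9 on day 16, 62.8 and 71.9 on day 18 and 56.8 and 53.7 on day 20. DOX libraries were above UT libraries on days 12 and 14, below them on days 16 and 18, and overlapped them on day 20, so that the average over days was near 0. The log2 fold change was 0.43 ± 0.12 on day 14 (SE; adjusted p = 0.013) and -0.82 ± 0.12 on day 18 (adjusted p = 5.3e-05), a 1.77-fold lower level in DOX cells. The day 14 call was lost without DOX library 2 (0.42, adjusted p = 0.09) or UT library 2 (0.37, 0.11). The day 14 call also ended by library sizes alone with mitochondrially encoded genes removed (0.36, 0.059). By library sizes alone the day 18 value was 0.09. Relative to the median of all genes in the same fit the day 18 value lay between -0.90 and -0.88 over 5 scalings. The subtraction itself makes this range narrow.

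RB1, the substrate of these kinases, was at 71.1 and 67.0 CPM on day 12, 64.1 and 72.4 on day 14, 32.5 and 30.2 on day 16, 21.1 and 14.7 on day 18 and 22.2 and 11.2 on day 20 in DOX libraries. In UT libraries it was at 74.8 and 77.6 CPM on day 10, 70.8 and 69.5 on day 12, 38.1 and 30.01 on day 14, 15.1 and 14.6 on day 16, 13.9 and 12.4 on day 18 and 16.8 and 12.7 on day 20. Both arms fell to a low level, UT cells by day 16 and DOX cells by day 18. The log2 fold change was 1.00 ± 0.22 on day 14 (SE; adjusted p = 0.002) and 1.08 ± 0.23 on day 16 (adjusted p = 0.00093), 2.01-fold and 2.11-fold higher in DOX cells. Without UT day 16 library 2 the day 16 value was 1.07 (adjusted p = 0.012). On day 18 it was 0.45 ± 0.24 and on day 20 0.19 ± 0.24, neither called. Without DOX day 20 library 2 the day 20 value was 0.61 (adjusted p = 0.042), and without DOX day 20 library 1 it was -0.39 (0.27).

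**Figure D4:**
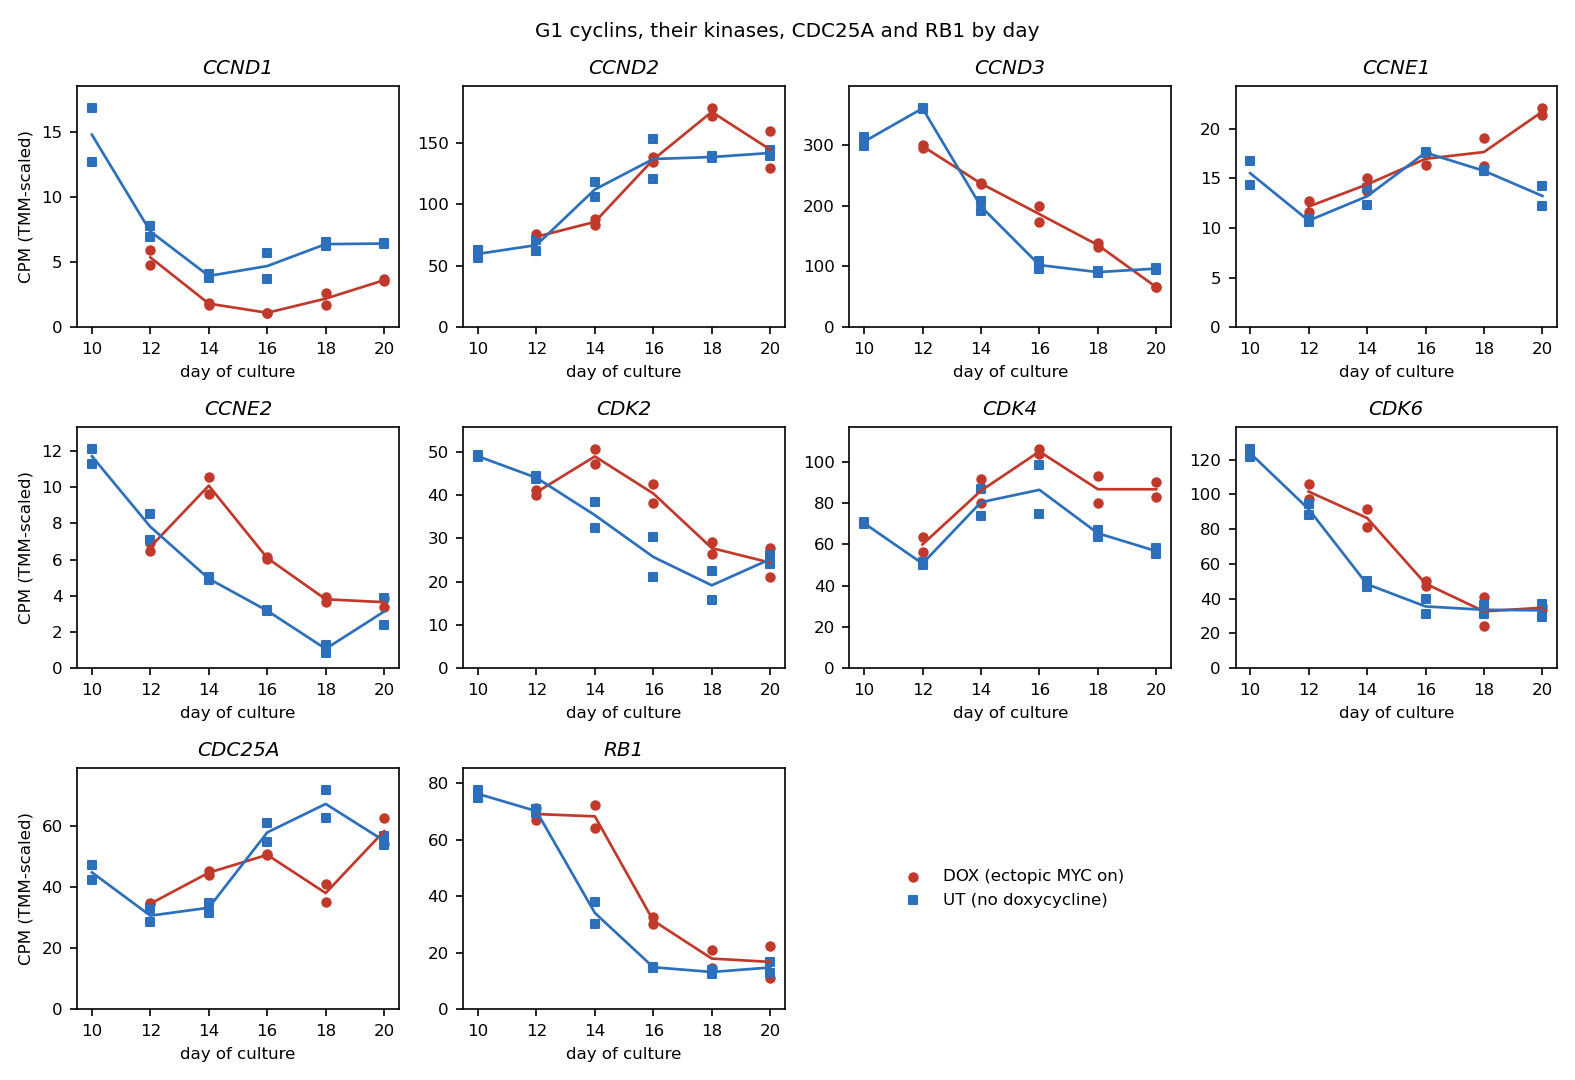
TMM-scaled CPM of the 10 members (1 panel each, axis from 0) by day of culture, with a point for each library and lines through the means of 2, DOX in red and UT in blue. CCND1 is lower in DOX cells on all 5 days, CDK2, CCNE2, CDK6 and RB1 come down later in DOX cells, and CDK4 and CCNE1 are higher in DOX cells on day 20.

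For CCND3, RB1, CDK6 and CCND2 the change from day 12 to day 20 was larger in both arms than the DOX against UT difference on any 1 day. All 10 members differed between days in DOX cells (59.8% of all genes called, F test over 5 days) and in UT cells (72.8%, over 6 days). From day 12 to day 20 in DOX cells 4 members rose and 5 fell, with 56.4% of all genes called (26.7% higher, 29.7% lower): CCND2 rose by 0.97, CCNE1 by 0.84, CDC25A by 0.76 and CDK4 by 0.53 on the log2 scale. CCND3 fell by 2.18, RB1 by 2.04, CDK6 by 1.55, CCNE2 by 0.88 and CDK2 by 0.74. In UT cells 2 rose and 5 fell, with 60.5% called (27.6% higher, 32.9% lower): CCND2 rose by 1.09 and CDC25A by 0.85, while RB1 fell by 2.25, CCND3 by 1.9, CDK6 by 1.46, CCNE2 by 1.33 and CDK2 by 0.81. The direction of the members that rose depends on the scaling, because the median of all genes moved from day 12 to day 20 by -0.078 in DOX cells and -0.201 in UT cells with TMM and by -1.263 and -2.352 by library sizes alone. By library sizes alone CCND2 was -0.20 in DOX cells and -1.08 in UT cells, CDC25A was -0.44 and -1.32, and in DOX cells CCNE1 was -0.35 and CDK4 -0.65. Relative to that median the members kept their values within 0.08 in DOX cells and 0.06 in UT cells over 5 scalings. CCND2 lay between 0.99 and 1.06 in DOX cells and between 1.23 and 1.29 in UT cells. Subtracting the median brings this about by itself and cannot show which scaling is right. The call of CDK4 in DOX cells was lost without DOX day 12 library 2 (0.42, adjusted p = 0.058).

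Between day 12 and day 20 the gap between the arms was tested as an interaction, and edgeR called 0 of the 10 members, with 8.96% of all genes called (5.62% higher, 3.34% lower). CCNE1 alone had an unadjusted p under 0.05, and limma-voom and DESeq2 each called 0. A test of any change of the difference over the 5 days, added after the values by day had been seen, called 7 of the 10 members, with 31.4% of all genes called. They were CCND3, CDC25A, CCNE2, CCND1, RB1, CCND2 and CDK2.

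Per kb of merged exons, the order of the members changed over the culture in a like way in both arms. On day 12 CCND3 led with 51.4 CPM per kb in DOX cells and 62.2 in UT cells, CDK4 was next with 18.9 and 16.0, and CCNE2 (1.52 and 1.78) and CCND1 (1.11 and 1.52) came last. RB1, CDK2 and CCND2 overlapped one another in DOX cells on that day, and so did CDC25A and CDK6 in both arms. On day 20 CDK4 led in DOX cells with 27.4 CPM per kb, ahead of CCND2 with 20.2, CDC25A with 14.2 and CCND3 with 11.4. In UT cells of day 20 CCND2 led with 19.8 CPM per kb, ahead of CDK4 with 17.9, CCND3 with 16.6 and CDC25A with 13.4. The libraries of these 4 genes did not overlap one another in either arm, while CDK6 and RB1 overlapped in both. This order rests on merged exon lengths. The longest transcript has 2394 bases for CCND3, 2076 for CDK4 and 6480 for CCND2. By those lengths CCND3 would lead in UT cells of day 20 and CCND2 would come after CDK4, so the order depends on the length used.

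Another 36 regulators of this step, written down as a list, were also measured, and all were tested. Averaged over days, 20 were higher and 7 lower in DOX cells and 9 were not called, with a median log2 fold change of 0.29. Over all genes 29.8% were higher and 23.0% lower, with a median of 0.081. Among the kinase inhibitors, CDKN2A, which encodes p16 and p14ARF, rose most (1.36 ± 0.14, SE; adjusted p = 1.7e-07), while CDKN2B, which encodes the CDK4 and CDK6 inhibitor p15, fell by 1.60 (adjusted p = 1.6e-08). Among the cyclins and kinases that act in S phase and mitosis, CCNA2 was higher by 0.70 and CDK1 by 0.69, whereas CCNA1, the A-type cyclin best known from germ cells, fell by 2.45 (adjusted p = 4.4e-08). CDK3, a kinase known for its part in the exit from G0, fell by 1.37. Of the E2F factors the repressor E2F7 rose by 0.78 and E2F5 by 0.65, and the activator E2F2 fell by 0.82. FBXW7, the ubiquitin ligase subunit that marks cyclin E and MYC for degradation, fell by 0.83 (adjusted p = 5.6e-07). Of 16 proliferation markers 11 were higher, 1 was lower and 4 were not called, with a median of 0.25, beside the same 29.8% and 23.0% of all genes: TYMS rose by 0.79, CCNB1 by 0.75 and RRM2 by 0.59, and TOP2A fell by 0.46. The summed level of the 16 markers was higher in both DOX libraries on days 12, 14 and 16. It was lower on day 18 (1346 to 1378 CPM against 1628 to 1860 in UT libraries) and on day 20 (1805 to 1886 against 2009 to 2423). On day 18, 3 markers were higher and 3 lower, with a median of -0.04, beside 19.8% and 16.0% of all genes. Day 20 had 4 higher and 1 lower, with a median of 0.22, beside 15.9% and 11.9% of all genes. The lower sum of day 20 thus does not hold for most single markers, because abundant markers weigh most in a sum.

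**Figure D5:**
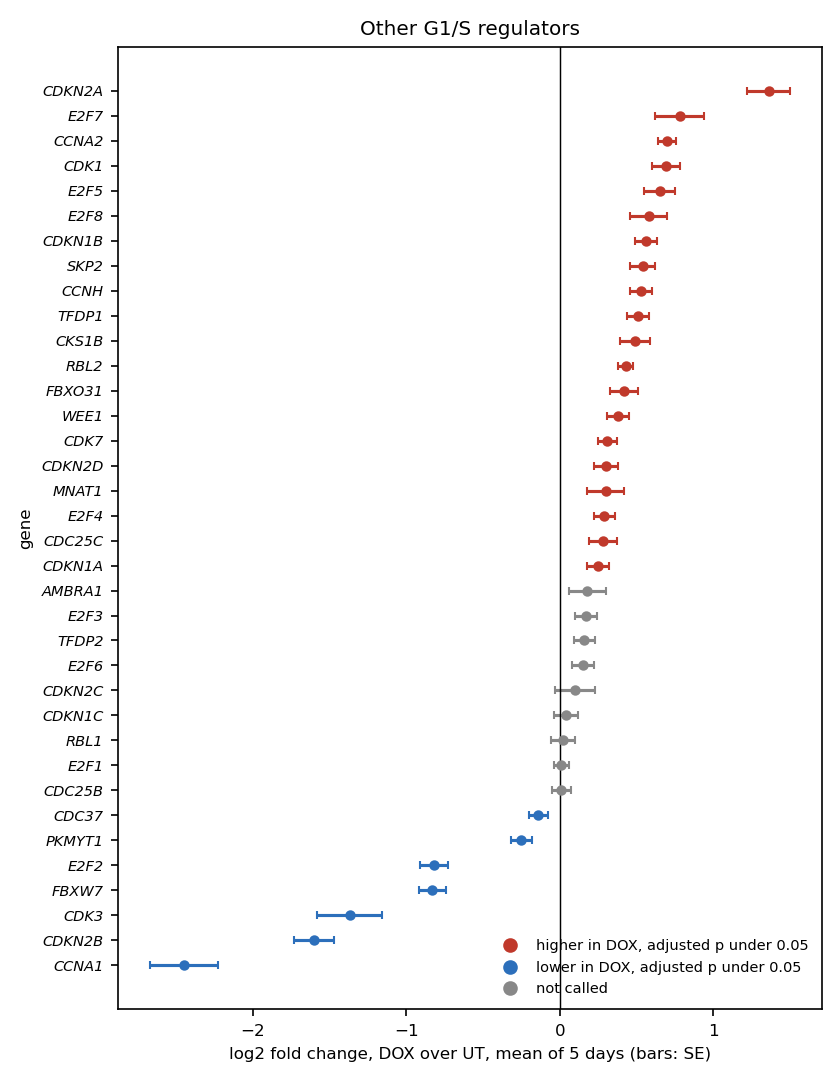
Log2 fold change of DOX over UT, mean of 5 days, with its SE, for the 36 other regulators of the G1 to S step, ordered by value. CDKN2A is at the top with 1.36, CCNA1 at the bottom with -2.45, and 9 genes in grey were not called.

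Markers of cell types also moved with day and arm. Over all 8 markers of mast cells, basophils and eosinophils the summed level ran between 250 and 11570 CPM in DOX libraries and between 30.4 and 33110 CPM in UT libraries, and 7 of the 8 were lower in DOX cells on average. The UT low end was on day 10, and on day 12 the sum was 250 to 313 CPM in DOX and 775 to 1005 CPM in UT libraries. PRG2 reached 7803 CPM in DOX and 25190 CPM in UT libraries, while CPA3, TPSAB1, TPSB2 and MS4A2 stayed at or under 37.3 CPM. Over 6 megakaryocyte markers the sum ran between 579 and 3901 CPM in DOX libraries and between 237 and 5607 CPM in UT libraries, with all 6 higher in DOX cells on average. Of 8 erythroid markers 7 were higher in DOX cells on average and 1 was lower, with sums between 330 and 1700 CPM in DOX libraries and between 86.5 and 1889 CPM in UT libraries. Of 7 markers of haematopoietic progenitors 1 was higher, 4 were lower and 2 were not called, with sums between 813 and 1084 CPM in DOX libraries and between 957 and 1437 CPM in UT libraries. SPN made up much of that sum, while CD34 ran between 5.09 and 84.8 CPM in DOX libraries and between 1.98 and 111 CPM in UT libraries, and KIT between 9.14 and 95.4 CPM in DOX libraries and between 4.28 and 98.9 CPM in UT libraries. Neutrophil granule markers were lower for 6 of 7 and monocyte and macrophage markers for 8 of 9 tested, with sums between 704 and 1972 CPM and between 96.2 and 203 CPM in DOX libraries and between 467 and 3441 CPM and between 113 and 296 CPM in UT libraries. The neutrophil low end of UT libraries was on day 10, and their day 12 sum was 1166 to 1448 CPM. Endothelial markers were higher in DOX cells for 6 of 7 on average, with sums between 106 and 684 CPM in DOX libraries and between 73.6 and 938 CPM in UT libraries. On day 12 the megakaryocyte sum was lower in DOX libraries, at 3666 to 3901 CPM against 5449 to 5607 CPM in UT libraries. The erythroid sum (1477 to 1700 against 1712 to 1889 CPM) and the endothelial sum (636.5 to 684 against 935.6 to 937.5 CPM) were lower on that day too. Of the defining markers TPSAB1 was at 0 in both libraries of UT day 10 and of UT day 20, MARCO in those of UT days 10, 16, 18 and 20, CAMP in those of UT day 10 and CLDN5 in those of UT day 20, and no megakaryocyte or erythroid marker was at 0 in both libraries of a group. In bulk RNA fewer cells of a type and less RNA per cell cannot be told apart, and the part of these lists in the members' values was not tested.

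For each member the genes with the most similar course were sought by Pearson's r of log2 CPM over the 11 group means, among 10075 named genes, as a description. CDK6 was closest to EXOC5 and PRPF8 (r of 0.994 each), and RB1 to TM9SF3 and DDX3X (0.995 each). CCND3 was closest to ETV3 (0.991) and RAB5A (0.989), CDK2 to PEX3 (0.989) and DYNC1LI1 (0.985), and CCND2 to RPL27A (0.987) and PANK2 (0.985). CCNE2 was closest to MCM9 (0.983) and C18orf54 (0.979), CDK4 to PSMG1 and MRPL17 (0.959 each), and CCNE1 to PKN3 (0.956) and OAF (0.916). CDC25A was closest to CYP1B1 (0.952) and DNAJB12 (0.941), and CCND1 to RGS12 (0.947) and FAM53B (0.942). Among the members CCND2 and CDK6 ran most nearly opposite, with r of -0.97. The 11 means share day, depth and the mitochondrial share, all of which move together along the culture.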

How the data were processed

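The submitters' processing notes name Trim Galore 0.6.5, STAR and Salmon, and the build hg38; other versions, the annotation release and the strand setting are not given in the sources used here. Values deposited by the authors are expected counts per gene and library; 88.3% lay within 0.0005 of a whole number and all were rounded. Of 60240 genes, 23698 had 0 counts in every library.

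The low-count filter of edgeR 4.0.16 (filterByExpr, minimum count 10) left 20115 genes, TMM scaled the libraries, and all comparisons came from 1 quasi-likelihood fit over the 11 groups (R 4.3.3; residual degrees of freedom 11, biological coefficient of variation 0.184 in common). A gene was called where its p, Benjamini-Hochberg adjusted over all genes, was under 0.05. Levels per kb used merged exons of GENCODE 29, matched to 58020 identifiers. Shares within a library were compared by exact permutation within days (7776 arrangements, smallest p 0.000257). The code was tested on simulated data in which 19580 of 19780 genes were left unchanged. Single-day tests recovered 0% of 1.25-fold changes, between 4.48% (day 18) and 11.9% (day 12) of 1.5-fold changes, and between 37.9% (day 20) and 62.1% (day 12) of 2-fold changes. The averaged test recovered 47.8%, 82.1% and 89.4%. No change was planted for the tests of a changing difference. In the data between 27.0% and 39.9% of genes were called on days 14 to 20, far more than were changed in the simulation. With so few changed genes the adjustment is stricter, so these rates are not the power of the tests reported here. A missing call on 1 day does not show that the arms were equal.

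The members and gene lists were chosen with earlier results of these data known. Named regulators are the 5 called genes with the largest rise and the 5 with the largest fall on average (up to 3 each way for proliferation markers), and the 2 most similar genes for each member. Alternatives were DESeq2 1.42.0 and its size factors, limma 3.58.1 (voom), library sizes alone, other filters, removal of mitochondrially encoded genes, a replicate block, fewer groups, and leaving out days or libraries.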

Additional observations from a re-analysis of the deposited data

Results flagged for a closer look

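For 7 members the DOX against UT difference itself differed between the 5 shared days, by edgeR's quasi-likelihood F test with Benjamini-Hochberg adjustment over all genes, a test added after the values had been seen (31.4% of all genes called). The adjusted p was 1.1e-05 for CCND3, whose log2 fold change was 0.86 on day 16 and -0.55 on day 20, and 0.00039 for CDC25A, at 0.43 on day 14 and -0.82 on day 18. It was 0.0011 for CCNE2, at -0.22 on day 12 and 1.80 on day 18, and 0.012 for CCND1, at -0.46 on day 12 and -2.10 on day 16. These 4 calls held in each of the 20 fits that left out 1 library.

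The adjusted p was 0.031 for RB1, 0.045 for CCND2 and 0.049 for CDK2, close to the threshold. With other processing CCND2 lost its call under DESeq2 size factors (adjusted p = 0.052), no filter (0.093) and the groups compared alone (0.059). CDK2 lost its call with at least 1 CPM in 4 libraries (0.051) and with the groups compared alone (0.07). RB1 lost its call by library sizes alone with mitochondrially encoded genes removed (0.061). The call of RB1 was lost in 10 of the 20 fits without 1 library: either DOX library of day 12 or 16, either UT library of day 12 or 16, or library 2 of day 14 in either arm (adjusted p up to 0.079). The call of CCND2 was lost in 14, without any one DOX library of days 12 to 18 or any one UT library of days 12, 14 or 18 (up to 0.16). The call of CDK2 was lost in 15 (up to 0.11) and kept without DOX day 20 library 2, UT day 14 library 1, UT day 16 library 1 or either UT library of day 18. CDK6 was called without either DOX library of day 18 (0.0034 and 0.036), UT day 16 library 2 (0.045), UT day 18 library 1 (0.049) or UT day 20 library 1 (0.039).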

How the results depend on the processing

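Fits on days 12 and 14 only, and library sizes alone with mitochondrially encoded genes removed, were added after seeing the data. The 8 averaged calls held with DESeq2, limma-voom, other filters, the other scalings and the replicate block; with days 12 and 14 alone 5 members and 5039 genes were called, and 5 members when only libraries of those days were fitted. Low counts limit CCND1 and CCNE2 most. Correlations of deviations between libraries of the same replicate number lay between 0.03 and 0.101 for the arms of a day. Over all pairs of groups the highest was 0.195. These low values cannot show whether replicate numbers pair the libraries. The replicate block left the members called on average at 8 and raised all genes called on day 12 to 950. It raised members called from day 12 to day 20 in DOX cells to 10, and members whose difference changed over days to 8. The causes of the changes below were not tested, except that library sizes alone move all genes together, as the medians show.

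By library sizes alone all genes called were 11446 on day 18 and 11094 on day 20, 12049 for any change of the difference and 9541 (members 9) for its change between day 12 to day 20; members called were 10 on day 16 and 9 on day 20. Values that turned were CDC25A averaged (0.47), CCND2 (0.93), CCNE1 (0.88) and CDC25A (0.74) on day 16, CDK6 (0.87) and CDC25A (0.09) on day 18, and CCND1 (0.08), CCND3 (0.37) and CDK2 (0.85) on day 20. From day 12 to day 20 they were CCND2 (-0.20), CCNE1 (-0.35), CDK4 (-0.65) and CDC25A (-0.44) in DOX cells, CCND2 (-1.08), CCNE1 (-1.87), CDK4 (-2.01) and CDC25A (-1.32) in UT cells, and, as the interaction of arm and day, CCND1 (0.61), CCND2 (0.88), CCND3 (0.70), CDK6 (0.90) and CDC25A (0.88). With mitochondrially encoded genes also removed, 2 members were called on day 20 and 2, with 2707 genes, for the change of the difference; CDC25A averaged (0.03), CCND2 (0.11) and CCNE1 (0.06) on day 16, CDK6 (0.23) on day 18, CDK2 (0.20) on day 20, CCNE1 (-0.16) and CDK4 (-0.29) over days in UT cells, and CCND2 (0.20), CCND3 (0.04), CDK6 (0.23) and CDC25A (0.21) in the change of the difference turned. With those genes removed and TMM kept, CCND2 on day 16 was 0.01.

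Values near 0 turned elsewhere. With DESeq2 size factors CCND2 averaged was -0.02 and on day 20 -0.06, CDK6 -0.02 and CDC25A -0.0037; with DESeq2 they were -0.02, -0.05, -0.02 and -0.0038. CCND2 on day 16 was 0.04 with no filter and 0.01 with limma-voom; with at least 1 CPM in 4 libraries it was -0.03 averaged and -0.03 on day 20; with the groups alone it was -0.0011 on day 20. Averaged without day 12 CCND2 was -0.01, without day 18 it was -0.06 and CDC25A 0.12; with days 12 and 14 alone CCND2 was -0.12, CCND3 -0.01 and CDC25A 0.30, and with only their libraries -0.16, -0.04 and 0.27. On day 12 all genes called were 940 with no filter, 1530 with limma-voom, 1408 with DESeq2 (1 member) and 4742 with the groups alone (2 members). With the groups alone 4 members and 4780 genes were called on day 18, 0 and 2035 on day 20, and 1079 genes for the change of the difference; DESeq2 called 2758 for the last. The DOX minus UT share of CDK4 was -0.0103 points with longest transcript lengths, -2.91 on days 12 and 14, -0.33 without day 12, -0.735 without day 18 and -0.926 without day 20; that of CCND2 was 0.647 without day 16, and that of CCNE1 was -5.73 (adjusted p = 0.037) without day 12.

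With 1 library left out, all genes called ranged between 56 and 217 on day 12, 2824 and 4156 on day 14, 3522 and 5392 on day 20 and, for the interaction between days 12 and 20, 912 and 2372. Members called ranged between 4 and 5 on day 14, 4 and 6 on day 18 and 4 and 7 for any change, and the share of CDK4 between -0.447 and 0.457 points. Ranges that crossed 0 were RB1 on day 12 (-0.06 to 0.03), CDK4 on day 14 (-0.01 to 0.23), CCND2 (-0.15 to 0.19) and CCNE1 (-0.09 to 0.02) on day 16, and CDK6 on day 18 (-0.41 to 0.29). On day 20 they were CCND2 (-0.12 to 0.18), CCNE2 (-0.08 to 0.61), CDK2 (-0.25 to 0.15), CDK6 (-0.08 to 0.25), CDC25A (-0.02 to 0.19) and RB1 (-0.39 to 0.61), and in the change of the difference CCND2 (-0.27 to 0.04), CDK2 (-0.14 to 0.25), CDK6 (-0.24 to 0.09), CDC25A (-0.20 to 0.01) and RB1 (-0.37 to 0.62).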
